A study of Homo sapiens with 6 samples.

Results

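The genes described here are 9 genes of the NRF2 and redox defence pathway, NFE2L2, KEAP1, NQO1, GCLM, GCLC, TXNRD1, SRXN1, HMOX1 and SLC7A11. They were chosen by name, and each symbol was matched to 1 Ensembl gene of the deposited table, which lists 63241 genes. A count was found for 20836 genes, including all 9. The study used HT-1376, an established cell line from a human bladder carcinoma, and asked how knockdown of SHMT2 altered its transcriptome. SHMT2 is the mitochondrial serine hydroxymethyltransferase. In the siSHMT2 group the cells received an siRNA against SHMT2, in the siNC group a non-targeting siRNA, and each group had 3 libraries. All cells were collected 24 h after transfection, so both groups had been through the transfection procedure. A single siRNA against SHMT2 and a single cell line were used, which limits the comparison to that siRNA in these cells. Sequencing was of mRNA, and the library kit keeps the strand. The strand setting of the authors' counting is not given in the sources used here, so each count and FPKM below is the value listed under a gene, and whether its reads came from that gene's own strand was not tested.

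NFE2L2 encodes NRF2, a transcription factor that switches on antioxidant and detoxification genes. KEAP1 binds NRF2 in the cytoplasm and hands it to a ubiquitin ligase, so the factor is degraded until oxidants or electrophiles modify KEAP1. NRF2 is therefore regulated mainly through its protein, and its activity is usually read from target genes: those for glutathione synthesis (SLC7A11, GCLC, GCLM), for thioredoxin and peroxiredoxin repair (TXNRD1, SRXN1), and for quinone and heme breakdown (NQO1, HMOX1). In bladder and other carcinomas the pathway is known for protecting tumour cells from oxidants and drugs.

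None of the 9 genes passed the test after adjustment over all genes. The lowest unadjusted p belonged to TXNRD1, which was 1.41-fold lower in siSHMT2 with groups that did not overlap. The level listed under NFE2L2 differed by less than the spread between replicates, and whether it is of NFE2L2 RNA was not tested. The comparison used edgeR's quasi-likelihood test on the counts with Benjamini-Hochberg adjustment. Enough counts for the test were present for 7 genes, and SRXN1 and HMOX1 fell below the filter on low counts. Of these 7, 0 had an adjusted p under 0.05 (0% of the 7207 genes tested), and the adjusted p was 0.999 for each. At an unadjusted p under 0.05 there was 1 gene, against 3.84% of all tested genes in either direction and 1.90% in the lower direction. The log2 fold change was below 0 for 5 genes and above 0 for 2. Their median was -0.11, against a median of -0.0010 over all tested genes. In log2 CPM, the library-scaled count on a log scale, the groups did not overlap for 1 of the 7, against 9.20% of all tested genes.

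The libraries held 533689 to 890574 counts, the lowest total being that of siSHMT2 replicate 1. These totals are reads counted in genes, far fewer than the sequenced reads per sample that the paper reports. The reason for this gap was not tested. A tested gene had a median of 25 counts per library. Standard errors of the log2 fold change in the 7 genes ran from 0.088 for NFE2L2 to 0.41 for GCLM. The targeted gene SHMT2 had 28, 15 and 20 counts in siNC and 9, 2 and 5 in siSHMT2, a log2 fold change of -1.78 (SE 0.48) with an unadjusted p of 5.6e-04 and an adjusted p of 0.93 in edgeR's test. Of 18 urothelial and epithelial markers, 16 had counts, and their summed level was 5288 to 5896 CPM in siNC and 5325 to 5811 CPM in siSHMT2. The keratins KRT8 and KRT18 had 13773 and 5544 counts in all 6 libraries, and of the uroplakin genes UPK1B had 891, UPK3B 12 and UPK2 1 counts, with UPK1A and UPK3A at 0. Each of the fibroblast, leukocyte and endothelial lists summed to at most 26.9 CPM per library, with the leukocyte marker PTPRC at 0.

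NFE2L2 (ENSG00000116044, GRCh38 chr2:177218667-177392756, minus strand) stood far above the other genes. It had 10867, 8750 and 10632 counts in siNC and 6736, 10141 and 10496 in siSHMT2. The smallest of these counts came from the library of the lowest total. NFE2L2 took 1.19% of the counts in the library where its share was lowest (95% Wilson interval 1.17 to 1.22%) and 1.33% where it was highest (1.30 to 1.35%); such intervals cover counting error only. Its count was the 4th highest among nuclear genes and the 7th highest among all genes, and among all genes it had the 8th highest FPKM, the count scaled by gene length and library total. In FPKM the level was 2513 ± 150.4 in siNC and 2474 ± 48.3 in siSHMT2 (SD, n = 3), and the groups overlapped. The log2 fold change was -0.02 (SE 0.088, 95% interval -0.20 to 0.15), and the exact permutation test on FPKM gave a two-sided p of 0.8. A design of 3 against 3 cannot give a p under 0.1 in that test. The interval for NFE2L2 runs from 1.15-fold lower to 1.11-fold higher, so a change of 1.5-fold, the threshold of the study's methods, lies outside it for the counts listed under NFE2L2. Whether these counts are of NFE2L2 RNA was not tested.

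NFE2L2 shares exonic bases with other genes, and whether this affects its counts was not tested. In GENCODE release 44 it has 65 transcripts with 14975 exonic bases in all, and 3710 of these bases (24.8%) lie opposite exons of genes on the plus strand. Most of them, 3509 bases, are shared with HNRNPA3 (ENSG00000170144, chr2:177212694-177223959), which encodes an abundant nuclear RNA-binding protein. These shared bases are 23.4% of the exonic bases of NFE2L2 and 53.6% of those of HNRNPA3. They come from 9 of the 65 NFE2L2 transcripts. The MANE transcript, the reference form of the coding mRNA with 2446 bases, shares 0 bases with HNRNPA3. A further 2037 exonic bases of NFE2L2 lie on exons of the long non-coding gene ENSG00000213963 on the same strand, which had 2 counts in all.

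**Figure D1:**
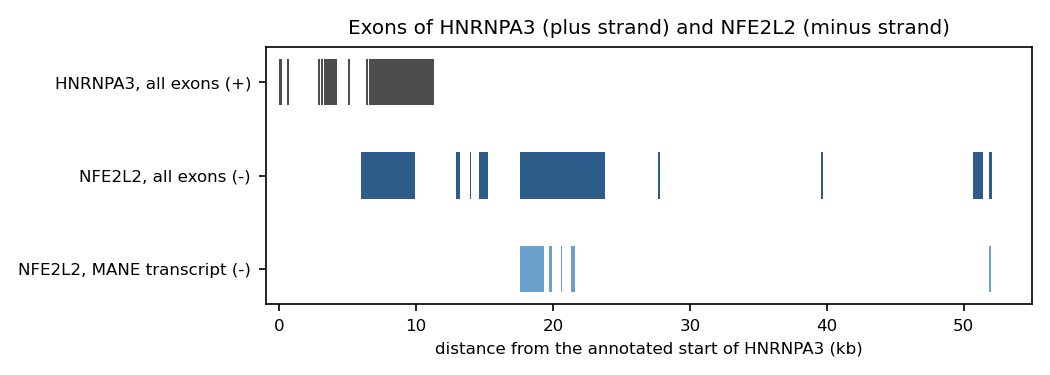
Exons of HNRNPA3 (top row, plus strand), of all NFE2L2 transcripts (middle row, minus strand) and of the NFE2L2 MANE transcript (bottom row), drawn by distance in kb from the annotated start of HNRNPA3. An exon of NFE2L2 at 5.97 to 9.94 kb lies across the last exon of HNRNPA3 at 6.55 to 11.3 kb, and the MANE exons lie outside HNRNPA3; exons of NFE2L2 farther away are not drawn.

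HNRNPA3 had 435, 293 and 438 counts in siNC and 227, 322 and 592 in siSHMT2. These are low beside NFE2L2, which held 25.0 times as many counts over the 6 libraries and 17.7 to 31.5 times as many within a library. Per length, HNRNPA3 was at 78.8 ± 7.13 FPKM in siNC and 82.9 ± 29.6 in siSHMT2 (SD, n = 3). Its log2 fold change was 0.08 (SE 0.14), and siSHMT2 replicate 3 was the highest library of HNRNPA3. Without that library the log2 fold change was -0.25. How many of the counts listed for NFE2L2 come from RNA of HNRNPA3 was not tested.

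The same arrangement was frequent among the genes with the most counts. Of the 20 nuclear genes with the highest counts, 19 had at least 100 exonic bases opposite another gene. Such genes made up 18.7% of the annotated nuclear genes and held 74.4 to 76.9% of the nuclear counts of a library. Among the 9 redox genes, NFE2L2, NQO1, GCLC and SLC7A11 had such an overlap, and KEAP1, GCLM, TXNRD1, SRXN1 and HMOX1 had no exonic base opposite another gene. In NQO1, GCLC and SLC7A11 the opposite gene was a long non-coding RNA and had the larger count.

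**Figure D2:**
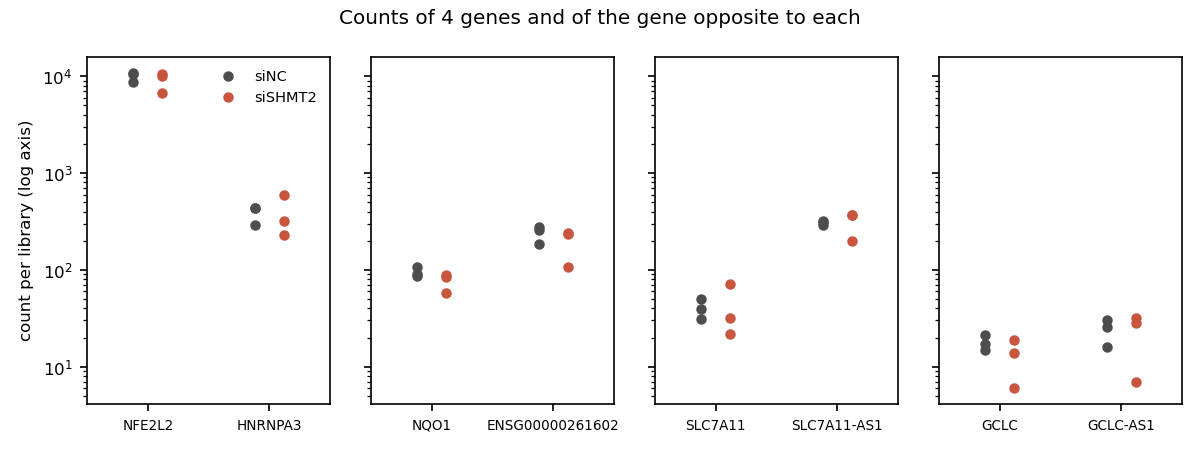
Counts per library, on a log axis, of the 4 genes with exons opposite another gene and of that gene, with siNC in grey and siSHMT2 in red. NFE2L2 lies above HNRNPA3 in every library, whereas NQO1, SLC7A11 and GCLC lie below the non-coding gene opposite to them.

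KEAP1 (ENSG00000079999, chr19:10486125-10503558, minus strand), the repressor of NRF2, had 29, 15 and 22 counts in siNC and 20, 24 and 22 in siSHMT2. The siSHMT2 counts lay within the range of the siNC counts. In FPKM, siSHMT2 replicate 1 at 14.2 lay above the highest siNC library, replicate 1 at 13.4. The level was 10.4 ± 2.59 FPKM in siNC and 11.8 ± 2.08 in siSHMT2 (SD, n = 3). Its log2 fold change of 0.15 had an SE of 0.32 and a 95% interval of -0.49 to 0.80, and the exact permutation p was 0.5. For the counts listed under KEAP1, the interval runs from 1.41-fold lower to 1.74-fold higher. It leaves out a 1.5-fold decrease of these counts and still holds an increase of that size.

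The glutathione genes had few counts. SLC7A11 (ENSG00000151012, chr4:138164097-138242349, minus strand) encodes the cystine carrier subunit xCT, which supplies cysteine for glutathione. It had 39, 50 and 31 counts in siNC and 22, 32 and 71 in siSHMT2. The highest count was in siSHMT2 replicate 3, and in FPKM the other two libraries of that group lay between the lowest and the middle siNC library. The siNC libraries had 4.94, 7.85 and 3.61 FPKM, the siSHMT2 libraries 4.27, 4.05 and 9.03. For SLC7A11 the log2 fold change was 0.13 (SE 0.28, 95% interval -0.44 to 0.70), with an exact permutation p of 0.8. A single library set the sign: without siSHMT2 replicate 3 the log2 fold change was -0.35, and without siNC replicate 3 it was -0.13. The RNA on the other strand, SLC7A11-AS1, shares 865 bases (8.97% of the exonic bases of SLC7A11, all in its MANE transcript). SLC7A11-AS1 had 310, 290 and 323 counts in siNC and 200, 371 and 373 in siSHMT2, in total 7.62 times the count of SLC7A11.

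GCLC and GCLM encode the catalytic and modifier subunits of glutamate-cysteine ligase, the first and rate-limiting enzyme of glutathione synthesis. GCLC (ENSG00000001084, chr6:53497341-53616970, minus strand) had 21, 15 and 17 counts in siNC and 6, 14 and 19 in siSHMT2. The lowest value was that of siSHMT2 replicate 1, and the groups overlapped. The level was 5.94 ± 0.872 FPKM in siNC and 4.55 ± 1.59 in siSHMT2 (SD, n = 3), with a log2 fold change of -0.33 (SE 0.38, 95% interval -1.10 to 0.44). The exact permutation p on FPKM was 0.3. The log2 fold change of GCLC was -0.14 without siSHMT2 replicate 1, -0.59 without siSHMT2 replicate 3 and -0.13 when its counts were summed with those of GCLC-AS1. GCLC-AS1, on the opposite strand, shares 305 bases (3.54%) with GCLC and had 139 counts in all against 92 for GCLC.

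GCLM (ENSG00000023909, chr1:93885199-93909456, minus strand) had 18, 6 and 24 counts in siNC and 7, 23 and 10 in siSHMT2. Each group held both low and high libraries, and the level was 3.96 ± 1.89 FPKM in siNC and 3.65 ± 1.82 in siSHMT2 (SD, n = 3). For GCLM the log2 fold change was -0.11 (SE 0.41, 95% interval -0.94 to 0.73), and it was above 0 without siNC replicate 3 (0.18), siSHMT2 replicate 1 (0.04) or siSHMT2 replicate 3 (0.15). The subunits were thus both measured with intervals wide enough to hold a 1.5-fold decrease or, for GCLM, an increase of that size.

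TXNRD1 (ENSG00000198431, chr12:104215779-104350307, plus strand) encodes the cytosolic selenoprotein that reduces thioredoxin with NADPH. It had 103, 74 and 96 counts in siNC and 40, 71 and 66 in siSHMT2. In FPKM the siNC libraries were at 31.7, 28.2 and 27.1 and the siSHMT2 libraries at 18.9, 21.8 and 20.4. All 3 siSHMT2 libraries lay below all 3 siNC libraries, in FPKM and in log2 CPM. The mean was 29.0 ± 2.39 FPKM in siNC and 20.4 ± 1.48 in siSHMT2 (SD, n = 3), a difference of -29.8%. The log2 fold change was -0.50 (SE 0.19, 95% interval -0.87 to -0.12). Its unadjusted p was 0.010, the 55th smallest of the 7207 genes, and its adjusted p in edgeR's test was 0.999. The exact permutation test on FPKM gave its smallest possible p of 0.1. Without siNC replicate 1 the unadjusted p was 0.0503 and the log2 fold change -0.44. TXNRD1 shares no exonic base with another annotated gene on either strand. This does not show which strand its reads came from, which was not tested for TXNRD1 either.

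**Figure D3:**
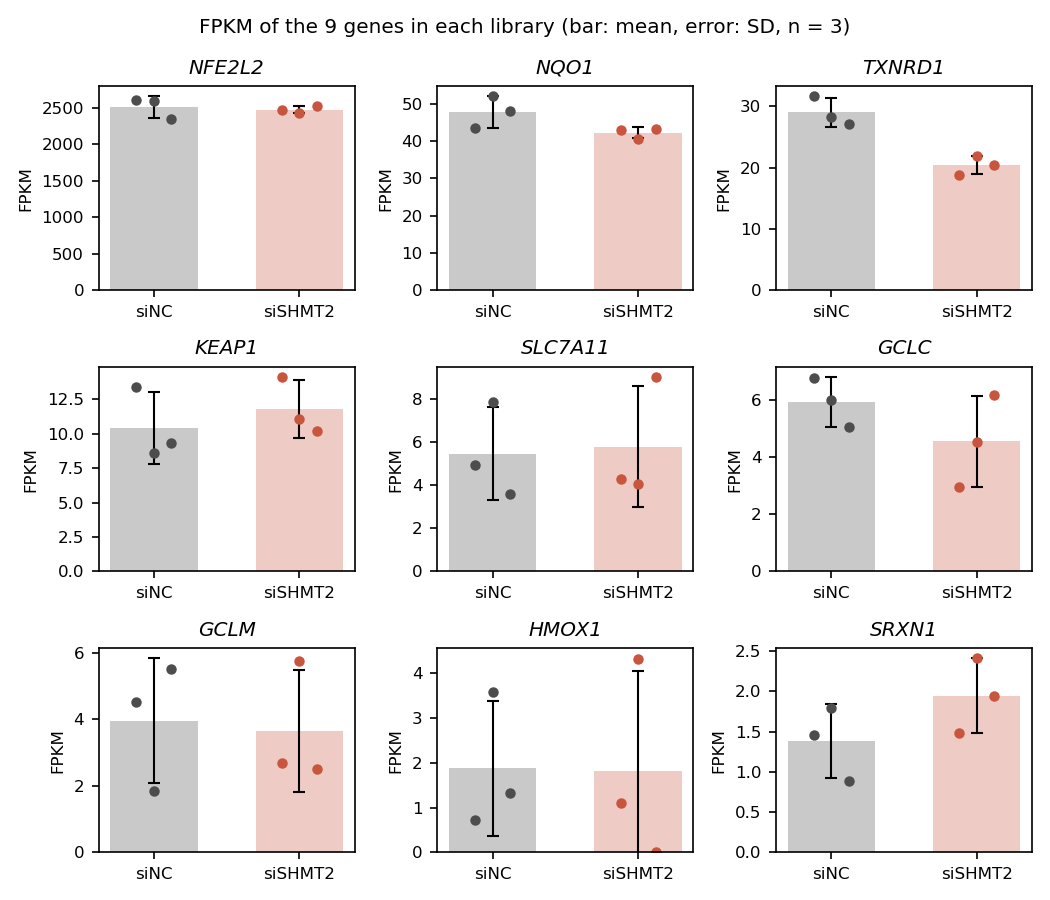
FPKM of the 9 genes in each library, in order of mean level; points are libraries, bars the group means and error bars the SD (n = 3), with siNC in grey and siSHMT2 in red, and each panel has its own axis from 0. TXNRD1 has separate groups with means of 29.0 and 20.4 FPKM, NQO1 is separated by a narrow margin, and the points of both groups overlap in the other 7 panels.

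NRF2 acts through the antioxidant response element, whose core is TGACNNNGC. This core was searched on both strands in the RefSeq promoter windows of GRCh38.p14, each of 300 bases with 250 before and 50 after a start site. It was present in 13.3% of all 35116 windows. Of the 9 genes, 7 matched the table, with 10 windows, and HMOX1 and SLC7A11 did not match. The core was found in 4 windows of 3 genes, GCLM, KEAP1 and TXNRD1. Bases outside the windows were not searched, so a gene without a match was not shown to lack the core. The matches are printed because TXNRD1 is the gene with the lowest p and the others are its comparison within the list. Each is printed on the strand of its gene with 10 flanking bases on either side, and capitals mark the core, which reads as its reverse complement where it lies on the opposite strand.
GCLM (chr1:93909446-93909474, minus): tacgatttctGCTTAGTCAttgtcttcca
KEAP1, first match (chr19:10502784-10502812, minus): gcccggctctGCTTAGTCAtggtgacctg
KEAP1, second match (chr19:10502807-10502835, minus): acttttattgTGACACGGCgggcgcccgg
TXNRD1, upstream start, first match (chr12:104215670-104215698, plus): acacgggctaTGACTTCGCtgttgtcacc
TXNRD1, upstream start, second match (chr12:104215761-104215789, plus): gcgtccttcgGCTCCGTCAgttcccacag
TXNRD1, downstream start (chr12:104286920-104286948, plus): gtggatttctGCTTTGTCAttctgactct

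GCLM and the first match of KEAP1 share the same core letters, GCTTAGTCA, beginning 34 and 31 bases before their start sites. In TXNRD1 the cores begin 99 and 8 bases before the upstream start and 102 bases before the downstream start. These matches are letters in a window, and binding was not measured. The 3 genes with a match had log2 fold changes of -0.11, 0.15 and -0.50.

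SRXN1 (ENSG00000271303, chr20:646615-653200, minus strand) encodes sulfiredoxin, which repairs overoxidised peroxiredoxins. It had 3, 3 and 2 counts in siNC and 2, 5 and 4 in siSHMT2, in total 19, and was not tested. The level was 1.38 ± 0.458 FPKM in siNC and 1.95 ± 0.467 in siSHMT2 (SD, n = 3), with an exact permutation p of 0.2. Of its exonic bases, 2292 (90.7%) are also exonic in ENSG00000270299 on the same strand, which had 0 counts in the 6 libraries. How reads in the shared bases were assigned was not tested.

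NQO1 (ENSG00000181019, chr16:69706996-69726668, minus strand) encodes a quinone reductase that is widely used as a readout of NRF2. It had 90, 87 and 108 counts in siNC and 58, 84 and 89 in siSHMT2. The siNC libraries had 43.6, 52.1 and 48.0 FPKM, the siSHMT2 libraries 43.0, 40.6 and 43.2. The highest siSHMT2 library lay just below the lowest siNC library, whereas in log2 CPM, which carries the TMM scaling, the groups overlapped. Groups that did not overlap in FPKM were found for 9.23% of the tested genes. The mean was 47.9 ± 4.28 FPKM in siNC and 42.3 ± 1.46 in siSHMT2 (SD, n = 3). NQO1 had a log2 fold change of -0.17 (SE 0.18, 95% interval -0.53 to 0.18) and the exact permutation p was 0.1, the smallest possible.

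A long non-coding gene, ENSG00000261602 (chr16:69709874-69710583, plus strand), lies entirely opposite NQO1 exons. Its 575 exonic bases are 19.4% of those of NQO1, and all are in the MANE transcript. This gene had 278, 184 and 261 counts in siNC and 106, 232 and 238 in siSHMT2, 1299 in all against 516 for NQO1. Its FPKM was 528.5 ± 55.8 in siNC and 448.7 ± 89.7 in siSHMT2 (SD, n = 3). It therefore stood above NQO1 both in counts and per length. When the counts of NQO1 and its opposite gene were summed, the log2 fold change was -0.20 with an unadjusted p of 0.11.

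HMOX1 (ENSG00000100292, chr22:35380361-35394214, plus strand) encodes heme oxygenase 1, an inducible enzyme of heme breakdown. It had 1, 4 and 2 counts in siNC and 1, 6 and 0 in siSHMT2, and was not tested. The 0 in siSHMT2 replicate 3 allows a level of up to 2.17 FPKM, the value of 3 counts in that library, which covers counting error only. The level was 1.87 ± 1.50 FPKM in siNC and 1.81 ± 2.24 in siSHMT2 (SD, n = 3), with an exact permutation p of 1.0. A difference of HMOX1 was not detectable with so few counts.

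**Figure D4:**
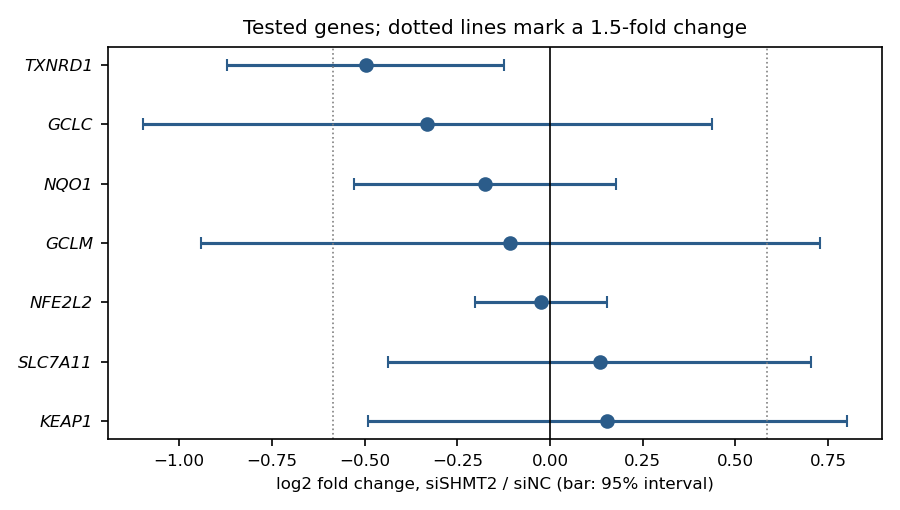
Log2 fold change of siSHMT2 over siNC for the 7 tested genes, with 95% intervals from edgeR's quasi-likelihood fit and dotted lines at a 1.5-fold change. The interval of TXNRD1 (-0.87 to -0.12) lies below 0, the other 6 include 0, and that of NFE2L2 (-0.20 to 0.15) is the narrowest of the 7.

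Per length, the listed values fell into a clear order at the top and a loose one below. This is an order of values as listed; it could differ if reads were counted on the other strand, which was not tested. The mean over the 6 libraries was 2493 FPKM for NFE2L2, 45.1 for NQO1, 24.7 for TXNRD1 and 11.1 for KEAP1. NFE2L2, NQO1 and TXNRD1 each lay above the next gene with no overlap of their ranges. From KEAP1 downwards the ranges of neighbours overlapped, although KEAP1 was above SLC7A11 in each of the 6 libraries. SLC7A11 at 5.63, GCLC at 5.25 and GCLM at 3.81 FPKM were not separated, nor were HMOX1 at 1.84 and SRXN1 at 1.66. The FPKM used for each gene the length of its longest annotated transcript, which for NFE2L2 is 5104 bases against 2446 of the MANE transcript.

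Over the 6 libraries the genes whose log2 CPM followed NFE2L2 most closely were CRNKL1 (Pearson r = 0.984), CERS6-AS1 (0.976) and BBOF1 (0.972), of 7206 genes compared. These are descriptions of 6 libraries, in which NFE2L2 ranged from 13.6 to 13.8 log2 CPM. HNRNPA3 had an r of -0.018 with NFE2L2 and stood at position 3753 of 7206. For other opposite pairs, r was 0.74 for GCLC with GCLC-AS1 and 0.66 for SLC7A11 with SLC7A11-AS1. It was 0.14 for NQO1 with ENSG00000261602. For NFE2L2 with AGPS, a plus-strand gene that shares only 11 exonic bases with it, r was 0.42. What these correlations reflect was not tested.

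The wider redox lists gave no adjusted call. They hold 93 further genes, of which 88 had counts and 47 were tested, and 0 of these had an adjusted p under 0.05. At an unadjusted p under 0.05, 2 genes were lower and 0 higher in siSHMT2, and 1 of the 2 was SHMT2 itself. Over all 7207 tested genes the share was 3.84% in either direction and 1.90% lower, and 2 of 47 is near the first of these. The median log2 fold change over the 47 genes was 0.01, with 25 above 0 and 22 below. No list had a median farther than 0.19 from 0, which was that of the superoxide and peroxide list with 2 tested genes.

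In the regulation of NRF2, 8 of 12 genes were tested and 0 had an unadjusted p under 0.05, with a median of -0.02. SQSTM1, which encodes the autophagy receptor p62 that binds KEAP1, was at 38.0 ± 7.31 FPKM in siNC and 39.7 ± 11.4 in siSHMT2 (SD, n = 3). MAFK, a small MAF partner of NRF2 on DNA, was at 29.1 ± 3.67 and 31.1 ± 4.68 FPKM (SD, n = 3).

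In glutathione synthesis and use, 14 of 27 genes were tested and 0 had an unadjusted p under 0.05, with a median of 0.06. GLRX2, a glutaredoxin, was at 68.1 ± 7.59 FPKM in siNC and 68.8 ± 9.25 in siSHMT2 (SD, n = 3). GPX4, the peroxidase that reduces lipid hydroperoxides, was at 58.3 ± 15.3 FPKM in siNC and 41.8 ± 6.35 in siSHMT2 (SD, n = 3), and its groups overlapped.

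In the thioredoxin and peroxiredoxin list 8 of 15 genes were tested, with a median of -0.09, and 1 had an unadjusted p under 0.05. This was TXN2, the mitochondrial thioredoxin. It had 18, 13 and 20 counts in siNC and 9, 8 and 6 in siSHMT2, and its groups did not overlap. In log2 CPM this held for 2 of the 8 tested genes of the list, TXN2 and TXN, both lower in siSHMT2. Over the 47 tested genes of all lists, 2 were apart above and 4 below, against 9.20% of all tested genes in either direction. The log2 fold change of TXN2 was -0.97 (SE 0.44) with an unadjusted p of 0.032 and an adjusted p of 0.999 in edgeR's test. Over 14 alternatives its unadjusted p ran from 0.012 to 0.14 and was under 0.05 in 9. The peroxiredoxin PRDX5 was at 142.1 ± 18.4 FPKM in siNC and 149.6 ± 27.8 in siSHMT2 (SD, n = 3). PRDX1 was at 111.0 ± 6.94 and 113.8 ± 14.3 FPKM (SD, n = 3), and how reads shared with its pseudogene copies were counted was not tested.

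In the supply of NADPH, the electron donor of both systems, 7 of 9 genes were tested and 0 had an unadjusted p under 0.05, with a median of -0.06. PGD, a dehydrogenase of the pentose phosphate pathway, was at 46.1 ± 4.56 FPKM in siNC and 51.4 ± 2.39 in siSHMT2 (SD, n = 3). TKT, the transketolase of that pathway, was at 48.5 ± 0.754 and 46.5 ± 4.42 FPKM (SD, n = 3). In the superoxide and peroxide list 2 of 5 genes were tested and 0 had an unadjusted p under 0.05. SOD1, the cytosolic superoxide dismutase, was at 31.2 ± 7.69 FPKM in siNC and 34.5 ± 4.93 in siSHMT2 (SD, n = 3). CAT, the catalase gene, was at 3.55 ± 1.36 and 4.56 ± 2.00 FPKM (SD, n = 3) and was not tested.

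Of 18 other known NRF2 targets, 4 were tested and 0 had an unadjusted p under 0.05, with a median of -0.03. FTH1, the heavy chain of ferritin, was at 218.7 ± 12.2 FPKM in siNC and 189.8 ± 40.4 in siSHMT2 (SD, n = 3). AKR1B1, an aldo-keto reductase, was at 23.9 ± 2.4 and 23.7 ± 8.10 FPKM (SD, n = 3). Of 7 genes of folate metabolism, cytosolic and mitochondrial, around SHMT2, 4 were tested and SHMT2 alone had an unadjusted p under 0.05. MTHFD1, which encodes a cytosolic folate enzyme, was at 15.0 ± 1.35 FPKM in siNC and 16.2 ± 2.36 in siSHMT2 (SD, n = 3), and MTHFD1L, its mitochondrial relative, at 6.52 ± 0.371 and 6.98 ± 1.48 FPKM (SD, n = 3).

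**Figure D5:**
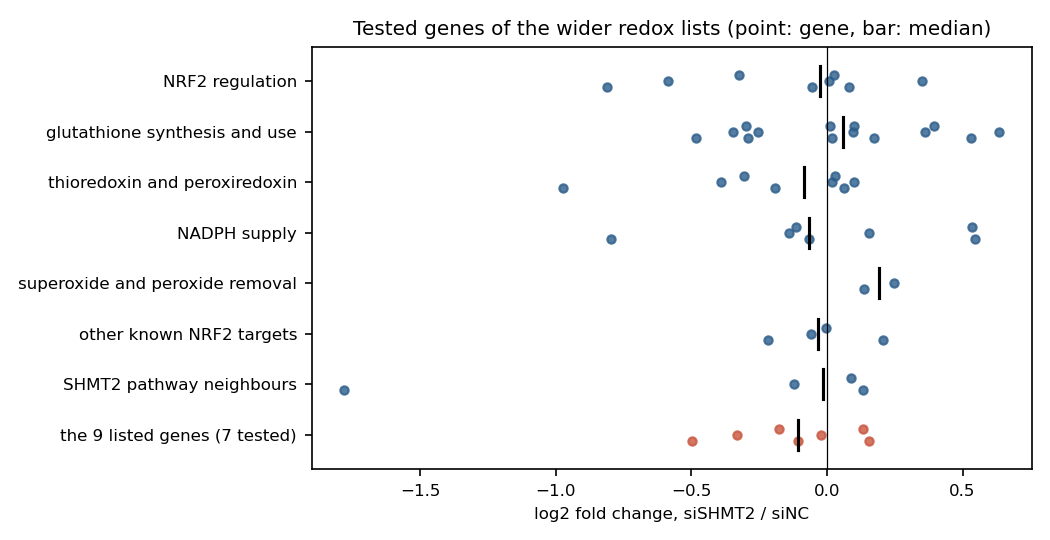
Log2 fold change of siSHMT2 over siNC for the tested genes of each wider list (blue) and for the 7 tested genes of the 9 (red); points are genes, offset vertically for legibility, and vertical bars are medians. The medians run from -0.11 in the 9 genes to 0.19 in the superoxide and peroxide list, and the points farthest below 0 are SHMT2 (-1.78) and TXN2 (-0.97).

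Opposite genes with the larger count were also found in the wider lists. Of 28 list genes with exons opposite another gene, the opposite gene had more counts for 11. A pair of examples, chosen after their values were seen, stood out by size. FTH1 shares 1267 exonic bases, 63.2% of its own, with BEST1, which encodes a chloride channel of the retinal pigment epithelium. FTH1 had 1104 counts over the 6 libraries and BEST1 had 61893. PRDX1 shares 501 bases, 29.8% of its own, with MMACHC, a gene of vitamin B12 metabolism, and had 659 counts against 13425. The FPKM of FTH1 and PRDX1 above rest on the smaller counts. So does that of MAFK, with 457 counts against 1525 for TMEM184A opposite to it. GLRX2 had the larger count of its pair, 1716 against 139 for RO60. The strand of the reads counted for each of these genes was not tested.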

How the data were processed

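RNA-seq of HT-1376 cells comprised 3 siNC and 3 siSHMT2 libraries. The authors trimmed reads with fastp 0.23.4 after FastQC 0.11.9 and aligned them to GRCh38 with HISAT2 2.2.1; the submitters' processing notes also name DESeq2 1.42.1. How reads were counted, with which strand setting and on which annotation release, is not given in the sources used here. The deposited counts are whole numbers without normalization. The deposited FPKM values are these counts divided by the listed gene length and the library total (largest relative difference on recomputing 2.3e-14).

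Counts were compared in R 4.3.3 with edgeR 4.0.16 (TMM, filterByExpr, quasi-likelihood test, two-sided, no replicate block) over 7207 genes. For single genes, FPKM was tested by exact permutation (two-sided). Log2 CPM used a prior count of 2. Exons were those of GENCODE release 44 (62666 listed genes matched). An overlap needed 100 shared bases, except that the summed counts took in every opposite gene, including AGPS with 11 shared bases. The comparison was tested on simulated counts.

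The 9 genes and the lists were chosen with earlier results of these data known. Beyond the 9, the text names the opposite gene with the most counts, list genes with an unadjusted p under 0.05 and otherwise the 2 of highest mean FPKM, SHMT2, and the 3 genes most correlated with NFE2L2. The paper calls the replicates biological, but neither it nor the labels say whether they were separate cultures. The p-values therefore measure the spread between these samples, which may be technical. Alternatives were DESeq2 1.42.0, RLE size factors, library size alone, no filter, limma 3.58.1 on log2(FPKM + 1) or log2(FPKM + 0.1), a minimum of 10 counts per library, the replicate block and each library left out; counts summed with the opposite genes were added after seeing the data.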

Additional observations from a re-analysis of the deposited data

How the results depend on the processing

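Over 15 alternatives, 0 of the 9 genes reached an adjusted p under 0.05, and the log2 fold change of TXNRD1 ran from -0.57 to -0.44 with an unadjusted p of 0.0097 to 0.0503. It was under 0.05 in 14 of the 15, so the number of these genes with an unadjusted p under 0.05 was 0 to 1 when a library was left out, and 0 without siNC replicate 1. The median log2 fold change ran from -0.18 to -0.02. With a library left out, the log2 fold change ran from -0.094 to 0.042 for NFE2L2 (above 0 without siNC replicate 2), from -0.65 to 0.18 for GCLM, from -0.35 to 0.50 for SLC7A11 and from -0.25 to 0.24 for HNRNPA3; these changed sign. It kept its sign but ran from 0.03 to 0.37 for KEAP1, from -0.25 to -0.08 for NQO1 and from -0.59 to -0.14 for GCLC. The number of wider-list genes with an unadjusted p under 0.05, 2 as reported, was 1 with DESeq2, 4 without a filter and 0 with at least 10 counts in every library, where TXN2 and SHMT2, the genes counted, were themselves filtered out and GCLM and GCLC could not be tested either. With a library left out it was 1 to 4, the extremes being without siSHMT2 replicate 2 and without siSHMT2 replicate 3. Over all genes, 277 had an unadjusted p under 0.05, 117 with DESeq2 and 699 of 20836 without a filter. The labels do not say whether equal replicate numbers mark pairs. Correlations of same-numbered deviations were -0.015, 0.048 and -0.012, and with 3 libraries per group these cannot decide it. With the replicate block TXNRD1 had a log2 fold change of -0.50. In that setting 1 of the 9 genes had an unadjusted p under 0.05, 0 had an adjusted one, and 304 genes in all had an unadjusted p under 0.05. Without a filter, SRXN1 had a log2 fold change of 0.54 (SE 0.86) and HMOX1 of 0.07 (SE 1.00). SRXN1 and HMOX1, with 19 and 14 counts in all, were below the filter on low counts.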
